A study of Homo sapiens with 54 samples.

Results

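The comparison described here set hMSN-like cells 1 h after the last of 5 daily doses of 1 µM dopamine (Chronic 1 h) against cells 24 h after that last dose (Chronic 24 h). Its members were 6 libraries of the 54 samples in the series, chosen by their titles, 3 at each time. The cells were differentiated from H9, a human embryonic stem cell line, under a protocol meant to give medium spiny neurons, the projection neurons of the striatum that receive dopamine. Each dose lasted 1 h per day for 5 days, the dopamine was dissolved with ascorbic acid, and all medium was exchanged between doses, so time since the dose and time since fresh medium cannot be told apart. The same fit held further groups of the 1 µM experiment, with 3 libraries each. They were cells given PBS (PBS), whose sampling time the labels do not give, and cells taken 1 h or 24 h after a single dose (Acute 1 h and Acute 24 h). The 6 libraries of the 1 mM chronic groups at 1 h and 24 h were used only for a comparison of doses. One cell line stood behind every library, and nothing in the labels shows whether replicates were separate differentiations, so p-values measure the spread between these libraries.

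Dopamine acts on medium spiny neurons through D1-type receptors, which raise cyclic AMP, and D2-type receptors, which lower it. A rise of cyclic AMP or calcium activates kinases such as protein kinase A and ERK, which phosphorylate CREB and the serum response factor complex already bound at immediate early genes. FOS, EGR1 and their relatives are then transcribed within minutes without new protein, and their short-lived mRNAs fall again within hours. Products of these genes are transcription factors that act on a later wave of targets, and a comparison of 1 h with 24 h therefore asks what is still moving soon after the last dose and has returned a day later.

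Immediate early genes are controlled by short promoter elements, so the window from 250 bases before to 50 bases after the RefSeq start is shown for 5 transcription factor genes that were higher at 1 h and 2 genes that were lower. Capitals mark TGACG on either strand, the core of the cyclic AMP response element, and the CArG box, which serum response factor binds. Sequences are RefSeq's on GRCh38.p14, written 5′ to 3′ along the gene's strand.
EGR1 promoter (chr5:138465229-138465528, plus strand): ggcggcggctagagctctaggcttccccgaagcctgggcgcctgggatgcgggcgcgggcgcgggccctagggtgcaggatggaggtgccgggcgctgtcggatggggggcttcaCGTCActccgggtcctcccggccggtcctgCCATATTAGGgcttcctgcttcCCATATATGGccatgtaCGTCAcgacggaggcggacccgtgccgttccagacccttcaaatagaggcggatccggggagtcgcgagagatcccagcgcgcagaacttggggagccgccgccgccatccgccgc
FOS promoter (chr14:75278578-75278877, plus strand): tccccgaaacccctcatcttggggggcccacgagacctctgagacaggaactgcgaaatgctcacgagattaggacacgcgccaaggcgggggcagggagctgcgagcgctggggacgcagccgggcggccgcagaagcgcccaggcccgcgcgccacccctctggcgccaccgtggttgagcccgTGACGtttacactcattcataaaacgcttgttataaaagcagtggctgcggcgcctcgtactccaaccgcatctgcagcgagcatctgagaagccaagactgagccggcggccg
NPAS4 promoter (chr11:66420754-66421053, plus strand): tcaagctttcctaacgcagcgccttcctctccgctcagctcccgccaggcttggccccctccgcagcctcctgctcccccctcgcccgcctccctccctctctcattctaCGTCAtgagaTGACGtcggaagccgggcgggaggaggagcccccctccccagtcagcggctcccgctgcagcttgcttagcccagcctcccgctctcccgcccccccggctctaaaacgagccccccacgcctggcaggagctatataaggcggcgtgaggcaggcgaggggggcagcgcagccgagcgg
NR4A3 promoter (chr9:99821635-99821934, plus strand): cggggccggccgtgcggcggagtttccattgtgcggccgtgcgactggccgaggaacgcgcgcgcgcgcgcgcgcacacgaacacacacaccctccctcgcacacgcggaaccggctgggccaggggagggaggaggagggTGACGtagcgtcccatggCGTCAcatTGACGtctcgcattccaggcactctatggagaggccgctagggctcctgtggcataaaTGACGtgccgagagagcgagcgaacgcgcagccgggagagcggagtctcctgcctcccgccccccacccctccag
SOX21 promoter (chr13:94712496-94712795, minus strand): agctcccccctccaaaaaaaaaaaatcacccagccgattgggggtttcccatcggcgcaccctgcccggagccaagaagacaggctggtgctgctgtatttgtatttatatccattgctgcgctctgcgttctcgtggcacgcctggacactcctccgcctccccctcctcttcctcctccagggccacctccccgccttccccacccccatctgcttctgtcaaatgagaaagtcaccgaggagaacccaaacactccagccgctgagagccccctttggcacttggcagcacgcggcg
INSIG1 promoter (chr7:155297628-155297927, plus strand): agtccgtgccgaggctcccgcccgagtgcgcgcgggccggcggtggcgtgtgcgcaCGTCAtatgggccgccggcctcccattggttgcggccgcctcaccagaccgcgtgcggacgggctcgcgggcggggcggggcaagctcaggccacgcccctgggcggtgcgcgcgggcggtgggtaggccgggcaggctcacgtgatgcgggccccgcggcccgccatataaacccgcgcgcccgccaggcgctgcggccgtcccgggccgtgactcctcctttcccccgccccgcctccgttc
CLK1 promoter (chr2:200864609-200864908, minus strand): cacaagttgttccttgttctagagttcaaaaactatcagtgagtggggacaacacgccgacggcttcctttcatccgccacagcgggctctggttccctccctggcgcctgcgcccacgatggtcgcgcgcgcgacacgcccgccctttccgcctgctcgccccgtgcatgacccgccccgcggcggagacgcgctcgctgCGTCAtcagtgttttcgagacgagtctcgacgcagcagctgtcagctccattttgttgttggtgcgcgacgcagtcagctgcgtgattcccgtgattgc
The EGR1 window held 2 CArG boxes and 2 copies of TGACG, the NR4A3 window 4 copies of TGACG and the NPAS4 window 2. FOS, INSIG1 and CLK1 had 1 copy each, and SOX21 had 0 copies of either. Among genes that were higher at 1 h, as defined below, 101 of 127 matched a RefSeq promoter, and 46 of these (45.5%) held TGACG, as did 7 of 13 matched promoters of lower genes (53.8%). TGACG was in 33.6% of promoters of genes tested and in 25.0% of all 27305 RefSeq promoters. The full element TGACGTCA, which contains TGACG on both strands, was in 3 of the 101 (2.97%), against 3.20% of genes tested. The AP-1 site TGANTCA was in 5 (4.95%, against 4.40%), the EGR site GCGTGGGCG in 0 (against 1.32%) and the CArG box in EGR1 alone (0.990%, against 1.04%). Both strands were searched, and a match describes letters in this window only.

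Reads on exons numbered 7145571 to 12911212 per library at 1 h and 8792569 to 27702963 at 24 h. Replicate 2 of Chronic 1 h stood apart: mitochondrially encoded genes took 12.8% of its exon reads and 44.2% of its TPM (a share of the library's transcripts, corrected for exon length), against 4.61% to 7.18% of exon reads and 18.1% to 27.6% of TPM in the other 5 chronic libraries. TPM are shares of one total, so those of nuclear genes are lower in that library. The fold changes below use TMM-normalized counts instead. Replicate 2 of PBS and replicate 2 of Acute 1 h held similar shares (12.4% and 12.6%). The share of exon and intron reads that fell in introns was 18.7% ± 4.32 at 1 h and 19.2% ± 1.90 at 24 h (SD, n = 3 each), with an exact two-sided permutation p of 0.8 where 0.1 is the smallest that 3 against 3 allow. Markers of neurons were high in all 6 libraries, with STMN2 at 755 to 961 TPM. Markers of medium spiny neurons were low beside those of glutamatergic neurons. The 16 listed for medium spiny neurons summed to 103 to 136 TPM at 1 h and 133 to 146 TPM at 24 h. The 12 for GABA neurons and interneurons summed to 153 to 205 TPM and 208 to 246 TPM. The 7 for glutamatergic neurons summed to 1063 to 1234 TPM and 1317 to 1324 TPM. Those for radial glia and neural progenitors, 10 genes, summed to 3176 to 4040 TPM and 4130 to 4624 TPM. PPP1R1B, which encodes DARPP-32, lay between 7.57 and 11.7 TPM, and PDYN was at 0 TPM in 5 of 6 libraries. Forebrain glutamatergic markers stood higher, with NEUROD6 at 593 to 789 TPM and SLC17A7 at 54.2 to 107 TPM, and TTR, a choroid plexus marker, at 1700 to 3332 TPM. The cells are therefore called hMSN-like here by their label only. The study itself reported DARPP-32 protein by immunostaining, and FOXP1, CTIP2 and ARPP21 by QRT-PCR, in its hMSN-like cells. It also reported markers of D1-type neurons (DRD1, TAC1 and PDYN) and of D2-type neurons (DRD2 and PENK among them). The PDYN values here differ from that report. The study's QRT-PCR used cells of an earlier day of differentiation than the chronic libraries, and the reason for the difference was not tested. Bulk RNA levels do not measure DARPP-32 protein or the share of cells that hold it. In bulk RNA, a change in the number of cells of a type and a change in RNA per cell cannot be told apart.

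Of 16541 genes tested on exon reads with edgeR's quasi-likelihood test, 322 passed (adjusted p under 0.05, Benjamini-Hochberg), which is 1.95%, and 2176 had an unadjusted p under 0.05. To be called a DEG, a gene also had to differ by 2-fold or more, that is by 1 on the log2 scale, and reach a max group mean of 1 TPM. There were 148 DEGs, 0.895% of genes tested. Of these, 127 (0.768%) were higher 1 h after the last dose and 21 (0.127%) were lower. The higher DEGs had a median log2(fold change) of 1.33 and the lower DEGs one of -1.49. TPM at 1 h lay above all 24 h values in 126 of the 127, the exception being GCC1, and below all 24 h values in each of the 21, as it did in 10.1% and 13.9% of all genes tested. Protein-coding genes made up 131 DEGs and lncRNAs 15. On total gene reads, which add intron reads, there were 114 DEGs of 22537 genes tested (0.506%), 96 higher (0.426%) and 18 lower (0.0799%). Of these, 83 were shared with exon reads, 56.1% of the exon list and 72.8% of the other, and the direction was the same for each of the 148. Leaving out 1 chronic library at a time gave 64 (Chronic 24 h replicate 1) to 131 DEGs (Chronic 1 h replicate 3). The counts were 72 and 83 without replicates 2 and 3 of Chronic 24 h, and 90 and 95 without replicates 1 and 2 of Chronic 1 h. In all, 54 of the 148 passed in each of these 6 fits. Without the 3 libraries with most mitochondrial reads, an alternative chosen after seeing the data, there were 258 DEGs (192 higher, 66 lower), which include 128 of the 148.

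**Figure D1:**
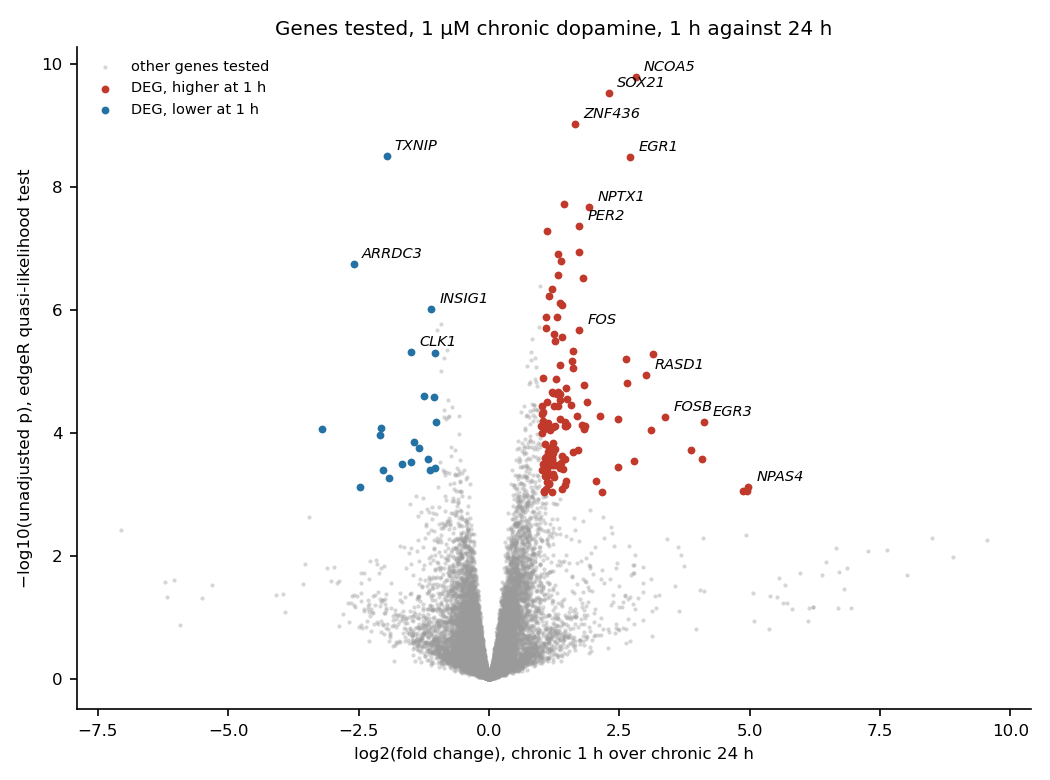
Each point is a gene tested on exon reads, with log2(fold change) of Chronic 1 h over Chronic 24 h on the x axis and −log10 of the unadjusted p on the y axis. The 127 DEGs that were higher at 1 h are red and the 21 lower DEGs blue, with NCOA5, SOX21 and ZNF436 at the top on the right and TXNIP and ARRDC3 on the left.

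EGR1, a zinc finger transcription factor on chromosome 5 (GRCh38, 138465479 to 138469303, plus strand), had the clearest change among immediate early genes. Its level was 55.2, 50.0 and 55.5 TPM in the 3 Chronic 1 h libraries and 7.76, 8.73 and 9.59 TPM at 24 h. The groups did not overlap, and the change was 6.54-fold (log2 2.71 ± 0.21 SE, adjusted p = 1.08e-05), with a call in each of the 6 fits that left out a library. PBS libraries held 11.5, 6.90 and 11.9 TPM. The 24 h values lay within this range only through PBS replicate 2 (6.90 TPM), a library rich in mitochondrial reads. They lay below the values of PBS replicates 1 and 3. FOS, the founding member of the AP-1 family, measured 32.7, 22.8 and 38.2 TPM at 1 h and 9.24, 8.29 and 12.1 TPM at 24 h. It rose 3.32-fold (log2 1.73 ± 0.23 SE, adjusted p = 0.00126), and passed without any 1 of the 6 libraries. FOSB, a relative whose truncated product accumulates in striatum under repeated drug exposure, was at 3.60, 3.14 and 6.17 TPM at 1 h and 0.654, 0.399 and 0.226 TPM at 24 h (log2 3.38 ± 0.60 SE, adjusted p = 0.00910). Its call was lost without replicate 2 or 3 of Chronic 24 h, with an adjusted p of up to 0.0723. JUNB, an AP-1 partner, was at 135, 50.4 and 130 TPM at 1 h and 33.8, 26.5 and 17.6 TPM at 24 h (log2 2.05 ± 0.47 SE, adjusted p = 0.0374). The low value belonged to replicate 2, the library rich in mitochondrial reads. JUNB passed only when that replicate was the one left out, with adjusted p of up to 0.165 without any of the other 5, and missed the test on total gene reads (adjusted p = 0.110).

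**Figure D2:**
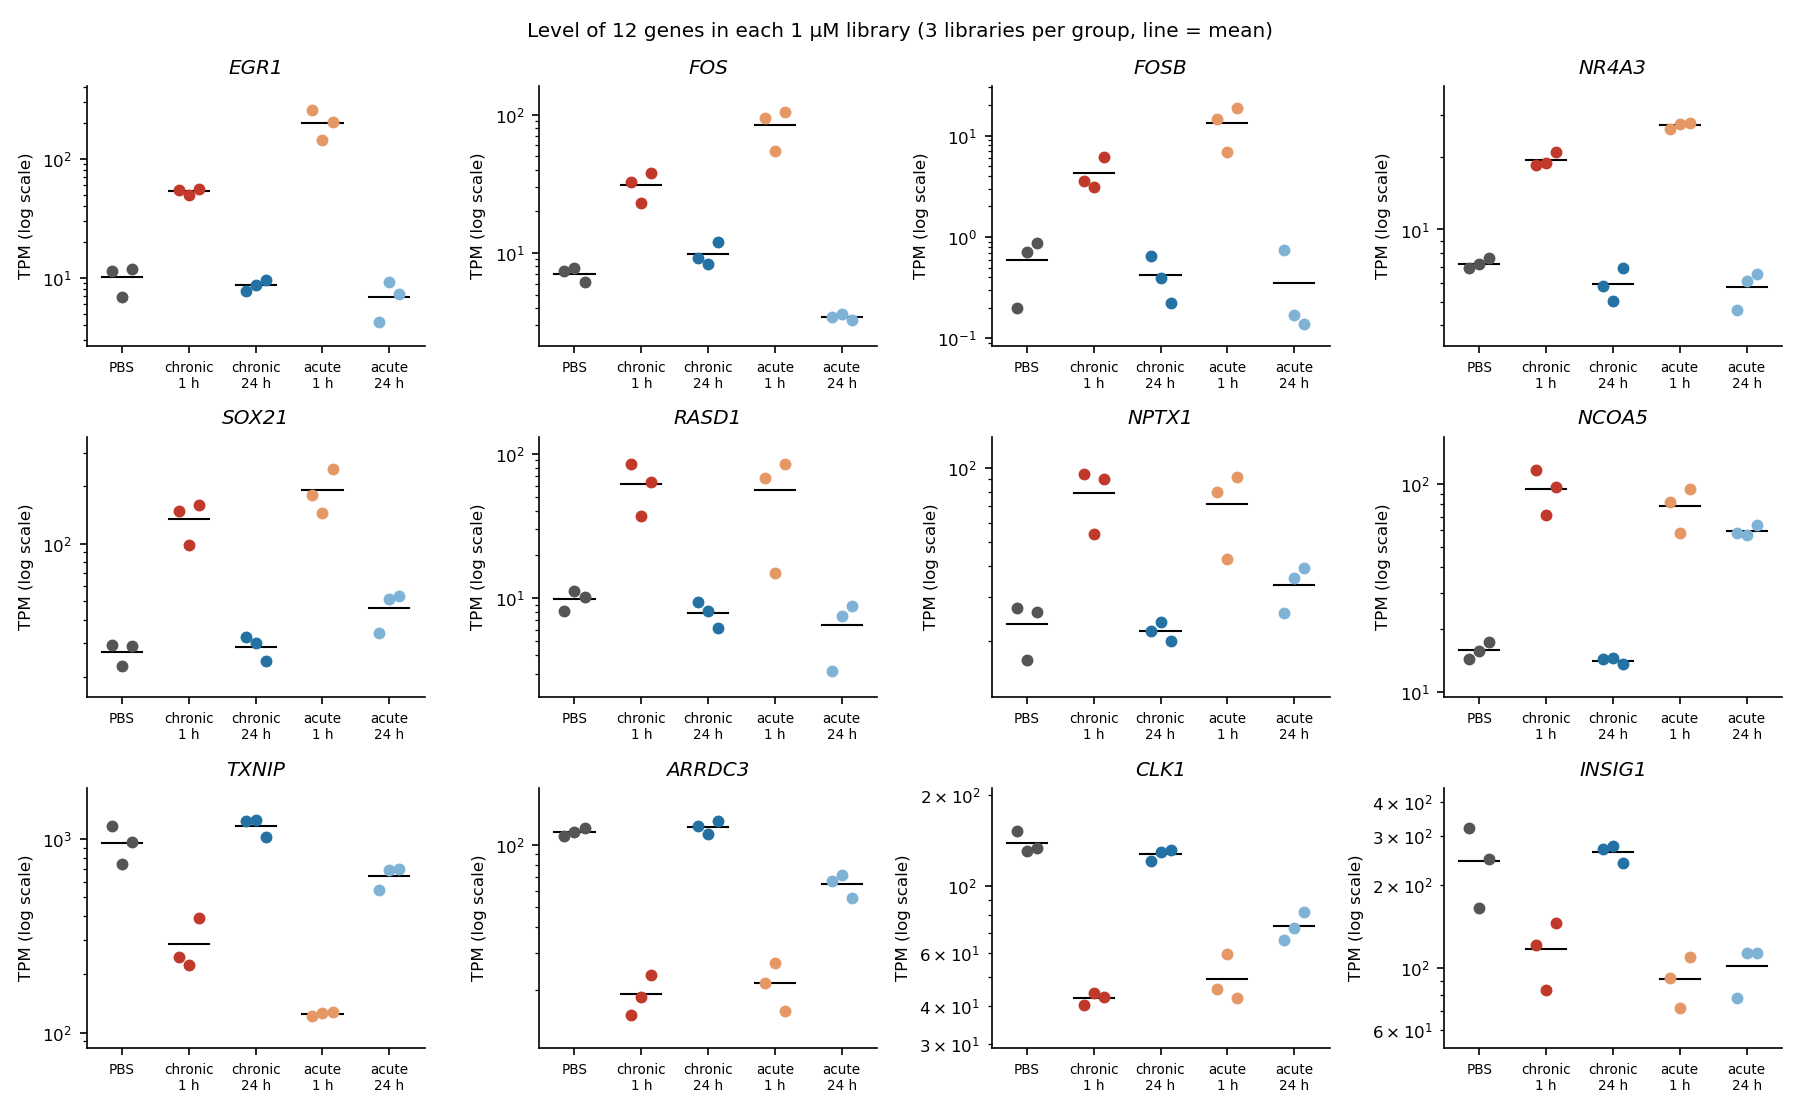
TPM on a log scale in every 1 µM library for 12 DEGs, grouped as PBS, Chronic 1 h, Chronic 24 h, Acute 1 h and Acute 24 h, with 3 points and a mean line per group. For the first 8 genes the 3 Chronic 1 h values lie above the Chronic 24 h values and for TXNIP, ARRDC3, CLK1 and INSIG1 below them, while NCOA5 at Acute 24 h stays near 60 TPM.

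Of 37 immediate early transcription factor genes tested, 13 passed as higher at 1 h and 2 as lower, with 1.55% and 0.399% of all genes tested passing in these directions. The list was at a median log2(fold change) of 0.61, against -0.03 over all genes. The remaining higher members were FOSL2, EGR2, EGR3, NR4A3, IER3, MYC, CSRNP1, NPAS4 and ID2. NR4A3, an orphan nuclear receptor, had tight replicates, with 18.5, 18.9 and 20.9 TPM at 1 h and 5.81, 5.06 and 6.95 TPM at 24 h (log2 1.81 ± 0.20 SE, adjusted p = 0.000335). CSRNP1, a cysteine- and serine-rich nuclear protein, was at 73.1, 26.8 and 82.5 TPM against 12.3, 11.2 and 6.08 TPM (log2 2.65 ± 0.42 SE, adjusted p = 0.00469). All of its 1 h values lay above its 24 h values. EGR3, a relative of EGR1, was at 7.11, 4.85 and 6.05 TPM at 1 h and 0.144, 0.165 and 0.913 TPM at 24 h (adjusted p = 0.0100). EGR2 went from 0.296, 0.188 and 0 TPM at 24 h to 2.81, 2.36 and 2.24 TPM at 1 h (adjusted p = 0.0185). NPAS4, an activity-dependent neuronal factor, had 8, 10 and 14 exon reads at 1 h and 1, 0 and 0 at 24 h (adjusted p = 0.0422). At 24 h these 3 genes had few reads, so no fold is given. Calls of NPAS4 were lost in all 6 fits that left out a library, those of EGR2 in 5 and those of EGR3 without replicate 1 or 2 of Chronic 24 h. The highest adjusted p was 0.280 for NPAS4, 0.113 for EGR2 and 0.0850 for EGR3, each without replicate 2 of Chronic 24 h. MYC lost its call in all 6 as well (up to 0.181) and IER3 without replicate 1 of Chronic 24 h (0.0571). On total gene reads 8 of the 37 passed as higher and 2 as lower, where 364 of 22537 genes passed in either direction.

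JUN and KLF6 went the other way. KLF6, a zinc finger factor, fell by 0.99 on the log2 scale (SE 0.13, adjusted p = 0.00126), from 52.0, 51.1 and 55.1 TPM at 24 h to 27.9, 19.5 and 28.4 TPM at 1 h. PBS libraries held 63.7, 43.3 and 55.6 TPM of KLF6, so the 1 h libraries were the low group. JUN, the other AP-1 partner, fell by 0.56 (SE 0.13, adjusted p = 0.0374), and its call was lost in each of the 6 fits that left out a library (adjusted p of up to 0.215). Other members did not pass. NR4A1 was at 36.7, 16.2 and 37.4 TPM against 13.3, 14.6 and 12.8 TPM (log2 1.19 ± 0.42 SE, adjusted p = 0.205), and NR4A2 was at -0.50 ± 0.20 SE (adjusted p = 0.281). Without the 3 libraries with most mitochondrial reads, 19 of the 37 passed as higher and 2 as lower. That fit gave more calls over all genes too, with 258 DEGs against 148 in the main fit. In it 3664 of 16783 genes had an unadjusted p under 0.05 in edgeR's test, against 2176 of 16541 in the main fit. The shares of all genes that passed as higher or lower in that fit are not given. The counts of 19 and 2 therefore have no matching background and are not read as a result.

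Among genes named by the study for RNA-seq, EGR1, FOS, FOSB and JUNB were DEGs here. The study picked these genes with these libraries in view, so they are no independent evidence of direction. ARC, an immediate early gene of the synapse, was at 63.0, 19.5 and 71.7 TPM at 1 h and 16.3, 15.6 and 8.66 TPM at 24 h (log2 1.94 ± 0.51 SE, adjusted p = 0.0706). It missed the test although its groups did not overlap, and had an adjusted p of 0.000140 without the 3 libraries with most mitochondrial reads. GADD45B was at 16.04, 5.92 and 10.1 TPM against 4.43, 5.32 and 5.09 TPM (adjusted p = 0.296), DUSP14 differed by 0.70 ± 0.25 SE on the log2 scale (adjusted p = 0.228) and TENT5B by 1.21 ± 0.89 SE (adjusted p = 0.643). MMP1 did not pass the filter on low counts, with 3.71, 0.221 and 0.450 TPM at 1 h and 0.922, 0.702 and 0 TPM at 24 h.

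Of the lists of targets and feedback regulators downstream of these signals, 1 to 4 members each passed, where 1.55% of all genes tested passed as higher and 0.399% as lower. Of 21 genes of the cyclic AMP and CREB response, 3 passed as higher (PER2, CRTC3 and SIK1B) and 1 as lower (CITED2). PER2, a circadian repressor with CREB sites, had 30.2, 27.2 and 30.2 TPM at 1 h and 10.5, 8.45 and 9.36 TPM at 24 h (log2 1.72 ± 0.17 SE, adjusted p = 8.90e-05). Its replicates were close to each other at both times, and it passed in all 6 fits that left out a library. Among 18 clock genes PER3 passed too (log2 0.99 ± 0.19 SE, adjusted p = 0.0146), but not on total gene reads (adjusted p = 0.274), and its call was lost without any of 4 libraries, replicates 1 and 2 of Chronic 1 h and 1 and 3 of Chronic 24 h (adjusted p of up to 0.0619). The hours of the day at which cells were taken are not in the labels, so a difference in time of day cannot be told apart from time since dose. SIK1B, a near-identical copy of the salt-inducible kinase SIK1 whose reads may be split between both, was at 137, 73.7 and 120 TPM against 29.8, 26.8 and 21.8 TPM (log2 2.13 ± 0.38 SE, adjusted p = 0.00910). Its call was lost without any of the Chronic 24 h libraries (up to 0.0588), that of CRTC3 in all 6 fits (up to 0.180) and that of CITED2 in none. Of 17 genes of ERK feedback, ERRFI1 passed as higher (log2 0.89 ± 0.16 SE, adjusted p = 0.00914, and 0.0556 without replicate 3 of Chronic 24 h), while DUSP1, DUSP4, DUSP6 and SPRY2 did not (adjusted p = 0.600, 0.770, 0.505 and 0.211). In this list 14 genes lay above 0, where 47.3% of all genes did, and the median was 0.35.

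Of 23 activity-induced synaptic and secreted genes, NPTX1 and CCN2 passed. NPTX1, a secreted pentraxin that clusters glutamate receptors, was at 94.1, 54.0 and 89.8 TPM at 1 h and 21.8, 23.9 and 19.9 TPM at 24 h, a 3.77-fold change (log2 1.91 ± 0.18 SE, adjusted p = 5.03e-05). CCN2, a matricellular protein and YAP target, was at 26.2, 27.6 and 21.6 TPM against 9.32, 13.0 and 12.2 TPM (log2 1.23 ± 0.24 SE, adjusted p = 0.0162), and kept its call in 1 of the 6 fits that left out a library (adjusted p of up to 0.100 without replicate 1 of Chronic 24 h). The other 21 did not pass, BDNF and VGF included (adjusted p = 0.827 and 0.988). GADD45G, a stress-inducible growth arrest gene, was the 1 of 19 GADD45 and p53 target genes that passed, with 152, 66.5 and 125 TPM at 1 h and 28.8, 12.4 and 17.4 TPM at 24 h (log2 2.62 ± 0.38 SE, adjusted p = 0.00254). NFKBIA, the inhibitor of NF-kB, was the 1 of 17 in its list (log2 0.87 ± 0.18 SE, adjusted p = 0.0185), and ATF4 and PPP1R15A were the 2 of 23 in the list of ATF4 and the unfolded protein response (adjusted p = 0.0114 and 0.0374). Calls of NFKBIA and PPP1R15A were lost in 5 of the 6 fits that left out a library and those of ATF4 in 2, without replicates 1 and 3 of Chronic 24 h. BTG1, an antiproliferative factor of mRNA decay, was the 1 of 20 in its list that passed, as lower (log2 -0.73 ± 0.15 SE, adjusted p = 0.0219), also lost in 5 of 6.

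**Figure D3:**
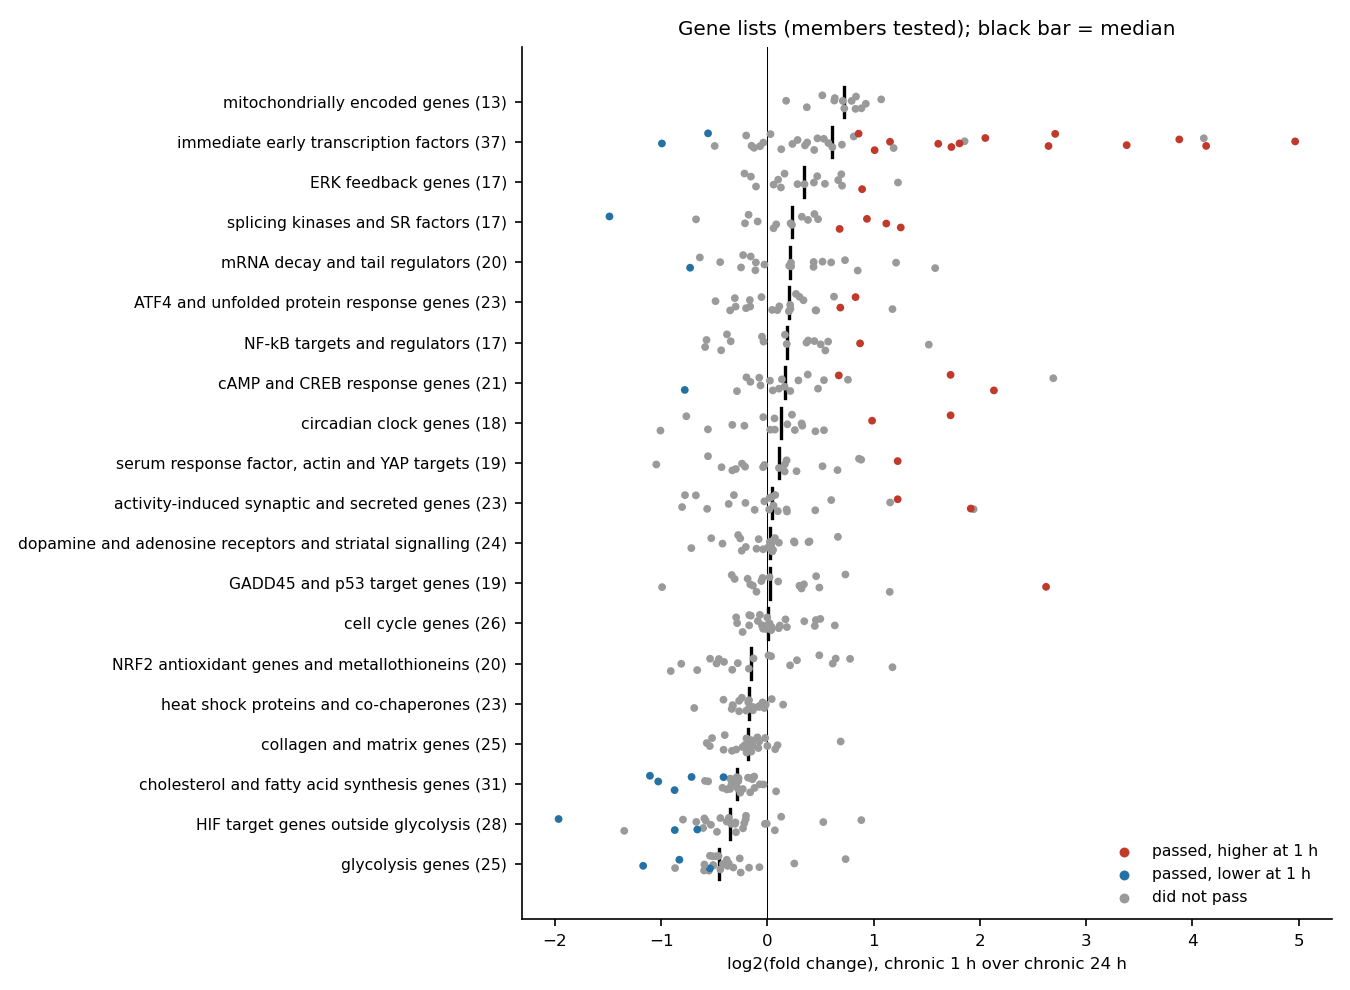
Each point is a gene tested, with log2(fold change) of Chronic 1 h over Chronic 24 h on the x axis and the gene list on the y axis, sorted by the median (black bar). Red and blue points passed the test as higher and lower at 1 h, grey points did not, and the glycolysis, HIF target and cholesterol lists lie mostly to the left of 0.

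Several of the largest changes lay outside these lists. SOX21, a repressor of the SOXB2 family on chromosome 13 (94709622 to 94712545, minus strand), was at 149, 98.0 and 160 TPM at 1 h and 32.3, 30.1 and 24.2 TPM at 24 h. That was 4.91-fold (log2 2.29 ± 0.15 SE, adjusted p = 2.46e-06), and its antisense neighbour SOX21-AS1 rose with it (log2 1.73 ± 0.18 SE, adjusted p = 0.000183). The strand used in counting is not given in the sources used here, so reads of the 2 genes may overlap. NCOA5, a nuclear receptor coactivator on chromosome 20 (46060991 to 46089962, minus strand), was at 117, 71.0 and 97.3 TPM at 1 h and 14.3, 14.5 and 13.6 TPM at 24 h, 7.03-fold (log2 2.81 ± 0.18 SE, adjusted p = 2.46e-06). PBS libraries held 14.3, 15.8 and 17.4 TPM of NCOA5, next to the 24 h values. RASD1, a small G protein induced by dexamethasone, was at 84.9, 37.1 and 63.2 TPM against 9.35, 8.07 and 6.22 TPM (log2 3.02 ± 0.46 SE, adjusted p = 0.00382), and MIR22HG, the host transcript of miR-22, at 15.97, 7.58 and 10.1 TPM against 1.34, 1.11 and 1.54 TPM (log2 3.15 ± 0.45 SE, adjusted p = 0.00229). These 4 passed in each of the 6 fits that left out a library. Others among the largest did not. ZFP91-CNTF, a readthrough transcript that shares its reads with ZFP91, was at 8.11, 21.8 and 14.9 TPM against 0.752, 0.286 and 0.692 TPM (adjusted p = 0.0467), and CHRNA10, a nicotinic receptor subunit, had 12, 4 and 33 exon reads against 0, 2 and 0 (adjusted p = 0.0470). Both lost their call in all 6 fits, with adjusted p of up to 0.246 and 0.227. GCNA (log2 3.10 ± 0.58 SE, adjusted p = 0.0114) and IQCN (log2 2.78 ± 0.58 SE, adjusted p = 0.0236) kept their call in 3 and 2 of the 6.

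Zinc finger genes with a ZNF symbol, a set chosen after values were seen, made up 22 of the 127 higher DEGs (17.3%) and 0 of the 21 lower DEGs, against 3.00% of genes tested. Most such proteins are KRAB-type repressors of transposable elements, many in clusters on chromosome 19. Of 497 tested, 33 passed as higher and 1 as lower, 374 had a log2(fold change) above 0, and the median was 0.30, where 47.3% of all genes lay above 0. On chromosome 19, 12 of 236 were higher DEGs and the median was 0.40. ZNF436, on chromosome 1, was at 76.8, 59.8 and 65.2 TPM at 1 h and 23.8, 22.5 and 21.9 TPM at 24 h (log2 1.65 ± 0.12 SE, adjusted p = 5.20e-06). Members of this family share sequence, so reads of some may be exchanged. The median over the 497 was 0.21 without replicate 2 of Chronic 1 h and 0.24 on total gene reads.

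Some further higher DEGs are named after their values were seen, and no list of their functions was tested. PNO1 and NIP7, factors of ribosomal subunit assembly, rose by 1.29 ± 0.20 SE and 1.47 ± 0.24 SE on the log2 scale (adjusted p = 0.00423 and 0.00527). TRMT6, a subunit of the transfer RNA adenosine methyltransferase, was at 20.1, 24.6 and 19.8 TPM against 7.01, 7.97 and 10.4 TPM (log2 1.46 ± 0.27 SE, adjusted p = 0.0108), without a call when replicate 1 or 2 of Chronic 24 h was left out (up to 0.0723). UTP14A and UTP15, of the small subunit processome, were higher by 1.21 ± 0.24 SE and 1.23 ± 0.27 SE (adjusted p = 0.0179 and 0.0317), UTP15 without a call in any of the 6 fits that left out a library and UTP14A with one in 3. EIF5, a translation initiation factor, rose by 1.36 ± 0.17 SE (adjusted p = 0.000661), from 54.7, 55.6 and 52.4 TPM to 133, 122 and 139 TPM. SSTR2, a somatostatin receptor, was at 84.6, 59.5 and 68.8 TPM at 1 h against 28.8, 31.9 and 29.2 TPM (log2 1.32 ± 0.15 SE, adjusted p = 0.000313).

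Of 17 genes of splicing kinases and SR factors, 4 SR or SR-like genes passed as higher, where 1.55% of all genes tested did, CLK1 passed as lower, and 12 did not pass. SRSF6 was at 160, 119 and 153 TPM at 1 h and 67.3, 71.1 and 70.9 TPM at 24 h (log2 1.12 ± 0.11 SE, adjusted p = 9.52e-05), and SRSF3 at 127, 94.2 and 129 TPM against 55.5, 55.8 and 43.6 TPM (log2 1.25 ± 0.17 SE, adjusted p = 0.00139). SRSF7 (log2 0.68 ± 0.13 SE, adjusted p = 0.0177) and TRA2B (log2 0.94 ± 0.17 SE, adjusted p = 0.00986) passed below the fold set for DEGs, the first losing its call without any of 3 libraries (Chronic 1 h replicate 1, Chronic 24 h replicates 2 and 3) and the second without Chronic 24 h replicate 2 (adjusted p of up to 0.0719 and 0.0588). SFPQ, a paraspeckle and splicing protein outside the list, rose by 1.27 ± 0.17 SE (adjusted p = 0.00167). CLK1, the CDC-like kinase of SR proteins, was at 40.2, 44.1 and 42.8 TPM at 1 h and 121, 130 and 131 TPM at 24 h, 2.80-fold lower at 1 h (log2 -1.49 ± 0.21 SE, adjusted p = 0.00219). Replicates of CLK1 were close to each other, replicate 2 of Chronic 1 h included, and PBS values were 152, 130 and 134 TPM.

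TXNIP and ARRDC3, a pair of arrestin-fold genes, were the lower DEGs with the smallest p. TXNIP, which binds thioredoxin and limits glucose uptake, was at 245, 222 and 390 TPM at 1 h and 1232, 1254 and 1025 TPM at 24 h, 3.91-fold lower at 1 h (log2 -1.97 ± 0.16 SE, adjusted p = 1.08e-05). ARRDC3, an adaptor for the degradation of surface receptors, was at 15.1, 18.4 and 23.5 TPM at 1 h and 123, 113 and 130 TPM at 24 h, 6.02-fold lower (log2 -2.59 ± 0.28 SE, adjusted p = 0.000229). In PBS, TXNIP was at 1162, 738 and 966 TPM and ARRDC3 at 110, 115 and 121 TPM, near the 24 h values in both cases. Of 28 HIF target genes outside glycolysis, TXNIP, VEGFA and BNIP3 passed as lower and 0 as higher, and 24 lay below 0 with a median of -0.35. Of all genes tested, 0.399% passed as lower and 47.3% lay above 0. The median of the HIF target list went the other way in the 2 other comparisons of 1 h with 24 h. It was 0.21 after a single dose of 1 µM and 0.43 after chronic dosing with 1 mM. BNIP3, a mitophagy receptor, fell by 0.87 (SE 0.15, adjusted p = 0.00910) and VEGFA by 0.66 (SE 0.15, adjusted p = 0.0326). VEGFA lost its call in all 6 fits that left out a library (up to 0.173) and BNIP3 without replicate 1 of Chronic 1 h or 3 of Chronic 24 h.

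In the metabolic lists most genes did not pass. Of 25 glycolysis genes, HK2, PGK1 and PDK1 passed as lower and 22 did not pass, where 0.399% of all genes tested passed as lower. Of the 25, 2 lay above 0, against 47.3% of all genes, and the median was -0.46. After a single dose of 1 µM the median of the glycolysis list was -0.12, and after chronic dosing with 1 mM it was 0.20. HK2, the inducible hexokinase, was at 9.68, 7.36 and 11.98 TPM at 1 h and 19.7, 21.1 and 27.5 TPM at 24 h (log2 -1.17 ± 0.24 SE, adjusted p = 0.0230), with no call in any of the 6 fits that left out a library (up to 0.110). PGK1 and PDK1 kept theirs in 1 of 6 each, with adjusted p of up to 0.235 and 0.144 without replicate 2 of Chronic 24 h. Of 31 genes of cholesterol and fatty acid synthesis, 5 passed as lower, 26 did not pass, and 1 lay above 0 (median -0.29). The median of this list was -0.02 after a single dose of 1 µM and -0.11 after chronic dosing with 1 mM. INSIG1, the sterol sensor that retains SREBP in the endoplasmic reticulum and itself an SREBP target, was at 122, 83.8 and 146 TPM at 1 h and 270, 278 and 241 TPM at 24 h (log2 -1.11 ± 0.14 SE, adjusted p = 0.000761). HSD17B7, of sterol synthesis, fell by 1.03 (SE 0.15, adjusted p = 0.00219), MSMO1 by 0.71 (SE 0.12, adjusted p = 0.00781) and SCD by 0.41 (SE 0.09, adjusted p = 0.0333). INSIG1 and HSD17B7 passed without any 1 of the 6 libraries, MSMO1 was lost without replicate 2 of Chronic 24 h (0.0504), and SCD was lost in all 6 (up to 0.152). On total gene reads 1 of the 25 glycolysis genes and 4 of the 31 passed as lower, where 364 of 22537 genes passed in either direction.

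Other lower DEGs included the neuronal gene GAD1 and the patterning gene OTX2. GAD1, the GABA-synthesizing enzyme, was at 2.75, 2.75 and 3.62 TPM at 1 h and 8.20, 6.66 and 9.73 TPM at 24 h (log2 -1.35 ± 0.27 SE, adjusted p = 0.0183), with a call in 1 of the 6 fits that left out a library (up to 0.0963 without replicate 1 of Chronic 1 h). GAD2, the second enzyme of this kind, did not pass, at 2.94, 1.77 and 1.66 TPM against 1.54, 1.48 and 2.34 TPM. OTX2, a homeobox factor of forebrain and midbrain, was at 47.3, 44.0 and 44.5 TPM at 1 h and 100.3, 99.7 and 103 TPM at 24 h (log2 -1.06 ± 0.18 SE, adjusted p = 0.00649). TBR1, of glutamatergic neurons, and TTR passed the test below the fold set for DEGs. TBR1 fell by 0.80 (SE 0.11, adjusted p = 0.00219), and TTR by 0.57 (SE 0.13, adjusted p = 0.0316), with a call of TBR1 in all 6 and of TTR in none of the fits that left out a library (up to 0.153 for TTR). The marker lists of neurons and of medium spiny neurons held no gene that passed, with medians of -0.09 over 12 genes and -0.16 over 15, which became -0.16 and -0.05 without replicate 2 of Chronic 1 h. Summed TPM of the medium spiny neuron list ranged from 103 to 136 at 1 h and from 133 to 146 at 24 h, and that of choroid plexus and epithelium from 1747 to 2409 and from 3107 to 3400. The part of cell makeup in the changes was not tested. Among the other lower DEGs were lncRNAs. AC010285.1, named after its values were seen, had the lowest log2(fold change), with 4, 4 and 4 exon reads at 1 h and 56, 85 and 30 at 24 h (log2 -3.20 ± 0.60 SE, adjusted p = 0.0114, up to 0.0690 in the fits that left out a library). The antisense lncRNA CELF2-AS1 was at 3.74, 1.94 and 3.59 TPM against 11.9, 10.1 and 19.5 TPM (log2 -2.09 ± 0.40 SE, adjusted p = 0.0131) and RGMB-AS1 at 1.63, 0.923 and 3.13 TPM against 8.01, 6.98 and 10.3 TPM (log2 -2.08 ± 0.38 SE, adjusted p = 0.0110). The antisense lncRNAs GAS6-AS1 and RNF213-AS1 and the protein-coding genes SPAG8 and LHFPL5 were lower by 1.25 to 2.04 on the log2 scale, and without stranded counting reads of antisense genes cannot be told from those of their partners. RNF213-AS1 passed in all 6 fits that left out a library, RGMB-AS1 in 3, CELF2-AS1 in 2, and GAS6-AS1, SPAG8 and LHFPL5 in 0.

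Of 24 dopamine receptor and striatal signalling genes tested, 0 had an adjusted p under 0.05, and the median was 0.03. With 1.95% of all genes passing, a count of 0 in a list of this size is near the background. DRD1 was at 2.77, 1.62 and 4.69 TPM at 1 h and 2.25, 2.64 and 2.18 TPM at 24 h (log2 0.40 ± 0.67 SE, adjusted p = 0.864), and DRD2 at 2.52, 1.06 and 3.23 TPM against 2.47, 3.13 and 2.44 TPM (log2 -0.20 ± 0.45 SE, adjusted p = 0.902). DRD4 had the highest level of the 5 receptors, with 4.35 to 14.4 TPM at 1 h and 11.6 to 17.9 TPM at 24 h (adjusted p = 0.759). DRD3 and DRD5 did not pass the filter on low counts. The standard errors of DRD1, DRD2 and DRD4 were larger than their differences. Lists of collagen and matrix (25 tested), cell cycle (26), heat shock (23) and NRF2 with metallothionein genes (20) held 0 genes that passed either, again near the background, with medians of -0.18, 0.01, -0.17 and -0.15. Of 13 mitochondrially encoded genes tested, all lay above 0 and 0 passed. Their median of 0.72 became 0.00225 without replicate 2 of Chronic 1 h.

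Both chronic groups were also set against PBS, so that a level at 24 h can be read beside cells given PBS. Whether the PBS held ascorbic acid, as the dopamine did, and when these cells were sampled is not given. Effects of dopamine, ascorbic acid and sampling time cannot be told apart in them. The comparisons with PBS share the PBS libraries, and each shares a chronic group with the comparison of 1 h and 24 h, so only each one's own values are given. At Chronic 24 h 0 of 16541 genes passed against PBS in edgeR, with 608 at an unadjusted p under 0.05 and 1 that passed in DESeq2. At Chronic 1 h 427 genes passed (2.58%). EGR1 was at log2 2.48 ± 0.21 SE against PBS at 1 h (adjusted p = 3.55e-05) and -0.23 ± 0.22 SE at 24 h (adjusted p = 0.867). FOS was at 2.13 ± 0.24 SE (adjusted p = 0.000272) and 0.40 ± 0.24 SE (adjusted p = 0.867). TXNIP was at -1.70 ± 0.15 SE at 1 h (adjusted p = 4.65e-05) and 0.27 ± 0.15 SE at 24 h (adjusted p = 0.867), and ARRDC3 at -2.57 ± 0.28 SE (adjusted p = 0.000236) and 0.02 ± 0.26 SE (adjusted p = 0.989). At 24 h all 4 genes missed the threshold against PBS.

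The change from 1 h to 24 h after 5 days of dosing was compared with that after a single dose, in separate libraries, by an interaction term. By the study's methods the chronic groups were taken at a later day of differentiation than the acute groups, so regimen and age of the culture cannot be told apart in these differences. In the acute comparison 98 genes passed (0.592%). Of the 127 higher DEGs, 122 lay above 0 after a single dose too, where 51.3% of all genes did, and 28 passed as higher there (background 0.447%). Of the 21 lower DEGs, 19 lay below 0 and 2 passed as lower (background 0.145%). The interaction passed for 3 of 16541 genes (0.0181%), with 1020 at an unadjusted p under 0.05. FOS was at 95.5, 54.9 and 104 TPM in Acute 1 h and 3.45, 3.60 and 3.27 TPM in Acute 24 h, a log2(fold change) of 4.65 ± 0.26 SE, and its chronic change was smaller by 2.92 ± 0.34 SE on the log2 scale (adjusted p = 0.00315). Every Acute 1 h value lay above every Chronic 1 h value, and every Acute 24 h value below every Chronic 24 h value. EGR1 was at 257, 143 and 206 TPM in Acute 1 h and 4.24, 9.24 and 7.25 TPM in Acute 24 h (log2 4.92 ± 0.24 SE), with a difference of -2.21 ± 0.30 SE (adjusted p = 0.0143). For EGR1 the Acute 1 h libraries were above the Chronic 1 h libraries, whereas values at 24 h overlapped. SOX21 was at 2.11 ± 0.15 SE after a single dose, a difference between regimens of 0.19 ± 0.21 SE (adjusted p = 1).

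NCOA5 went the other way, with a chronic change larger by 2.38 ± 0.24 SE (adjusted p = 0.00126). It was at 82.3, 58.4 and 95.5 TPM in Acute 1 h and at 58.3, 57.1 and 64.0 TPM in Acute 24 h (log2 0.44 ± 0.17 SE, adjusted p = 0.322), so the low groups were PBS and Chronic 24 h. The next DEGs by p of the interaction missed the threshold, with DGCR8 at 1.22 ± 0.22 SE (adjusted p = 0.105) and INSIG1 at -1.01 ± 0.19 SE (adjusted p = 0.113). INSIG1 was at 77.9, 113 and 114 TPM in Acute 24 h, within the Chronic 1 h range or near it and below all Chronic 24 h values. On the mean of log2(TPM + 0.1), Acute 24 h lay nearer to Chronic 1 h than to Chronic 24 h for 59 of 127 higher and 8 of 21 lower DEGs, while PBS did so for 2 and 0. For the higher DEGs the Acute 24 h split was close to even. The DEGs were picked for a gap between the chronic groups, and the share over all genes is not given. TPM of nuclear genes also depend on the mitochondrial share, which differed between these libraries. The counts for Acute 24 h are therefore not read as a result. Why Acute 24 h lay nearer to Chronic 1 h for some DEGs was not tested. In DESeq2, which gave more calls in the simulation too, 116 genes passed the interaction, and without the 3 libraries with most mitochondrial reads 131 did in edgeR. On total gene reads 2 passed, NCOA5 among them (adjusted p = 0.0198), while FOS and EGR1 missed the threshold (adjusted p = 0.0614 and 0.125). FOS and NCOA5 passed without any 1 of the chronic libraries, and EGR1 in 2 of 6 fits, with no call without replicate 1 or 3 of Chronic 1 h or 2 or 3 of Chronic 24 h (up to 0.0974).

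**Figure D4:**
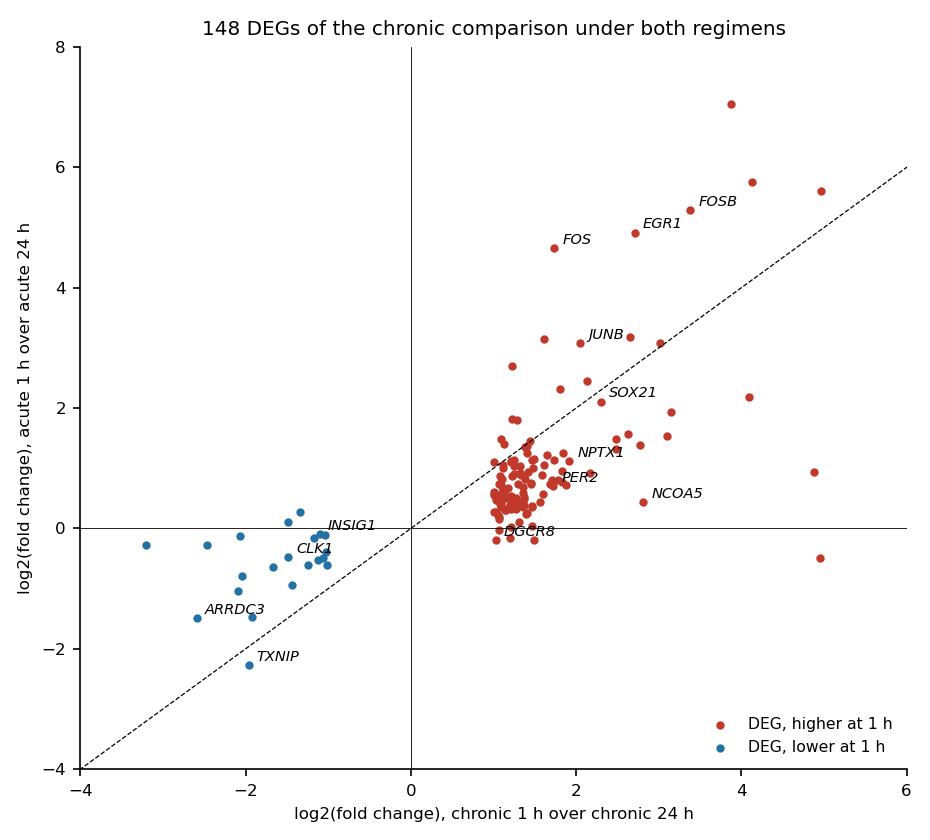
Each point is one of the 148 DEGs of the chronic comparison, with its log2(fold change) of 1 h over 24 h under chronic dosing on the x axis and after a single dose on the y axis, and equal values on the dashed line. FOS (1.73 and 4.65) and EGR1 (2.71 and 4.92) lie above the line, and NCOA5 (2.81 and 0.44) lies below it.

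Whether the dose changes the chronic move from 1 h to 24 h was asked in a fit of 30 libraries with 10 group means. The 1 mM libraries had their own PBS group, and the chronic ones held 2.81% to 3.28% mitochondrial exon reads, so dose and experiment cannot be told apart. At 1 mM 45 of 18390 genes passed (0.245%). Of the 127 higher DEGs at 1 µM, 122 lay above 0 at 1 mM, where 45.3% of all genes did, and 17 passed as higher (background 0.234%), and of the 21 lower DEGs 15 lay below 0 and 1 passed (background 0.0109%). The difference between doses passed for 6 genes (0.0326%), with 1309 at an unadjusted p under 0.05. ARRDC3 turned round, with 274, 269 and 339 TPM at 1 h and 118, 124 and 65.7 TPM at 24 h of 1 mM (log2 1.49 ± 0.48 SE, adjusted p = 0.563), a difference of -4.08 ± 0.70 SE between 1 µM and 1 mM (adjusted p = 0.0133). All 1 h values lay below the 24 h values at 1 µM and above them at 1 mM. ADAMTS1, a secreted protease that was no DEG at 1 µM (log2 -0.78 ± 0.22 SE, adjusted p = 0.106), was higher at 1 h of 1 mM (91.3, 104 and 87.4 TPM against 41.0, 53.1 and 38.7 TPM) and differed by -1.82 ± 0.31 SE (adjusted p = 0.0131). TXNIP was at 0.52 ± 0.37 SE at 1 mM, and its difference of -2.49 ± 0.53 SE missed the threshold (adjusted p = 0.0771).

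NR4A3, NPTX1 and VPS4B had larger changes at 1 µM. PCF11 was higher at 1 h of 1 µM, while its 1 h values at 1 mM lay below those at 24 h, a change that did not pass there. NR4A3 was at 37.2, 31.3 and 29.3 TPM at 1 h and 31.7, 23.5 and 26.4 TPM at 24 h of 1 mM, a difference of 1.58 ± 0.26 SE (adjusted p = 0.0131). NPTX1 differed by 1.35 ± 0.24 SE (adjusted p = 0.0255). PCF11, of 3′ end processing, was at 48.5, 45.4 and 45.0 TPM against 24.2, 25.7 and 23.9 TPM at 1 µM and at 32.0, 32.1 and 32.8 TPM against 38.9, 35.6 and 43.0 TPM at 1 mM (difference 1.31 ± 0.22 SE, adjusted p = 0.0131). VPS4B, an ATPase of the ESCRT machinery, was at 30.4, 34.5 and 32.7 TPM against 13.9, 12.3 and 13.9 TPM at 1 µM, and at 33.4, 36.8 and 35.5 TPM against 33.4, 25.6 and 39.8 TPM at 1 mM (difference 1.32 ± 0.22 SE, adjusted p = 0.0131). Of these 6, 0 passed without replicate 2 of Chronic 1 h or without replicate 1 or 2 of Chronic 24 h, where 0 genes passed in all. ARRDC3 was lost without replicate 1 of Chronic 1 h as well, and NPTX1 in all 6 fits. On total gene reads ARRDC3 and NR4A3 passed (adjusted p = 0.0151 and 0.0319), and ADAMTS1, PCF11, VPS4B and NPTX1 did not (adjusted p = 0.0677, 0.0804, 0.197 and 0.311). EGR1 was at 3.26 ± 0.67 SE at 1 mM, and the doses differed by -0.56 ± 0.92 SE (adjusted p = 0.966), an error that covers both directions.

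**Figure D5:**
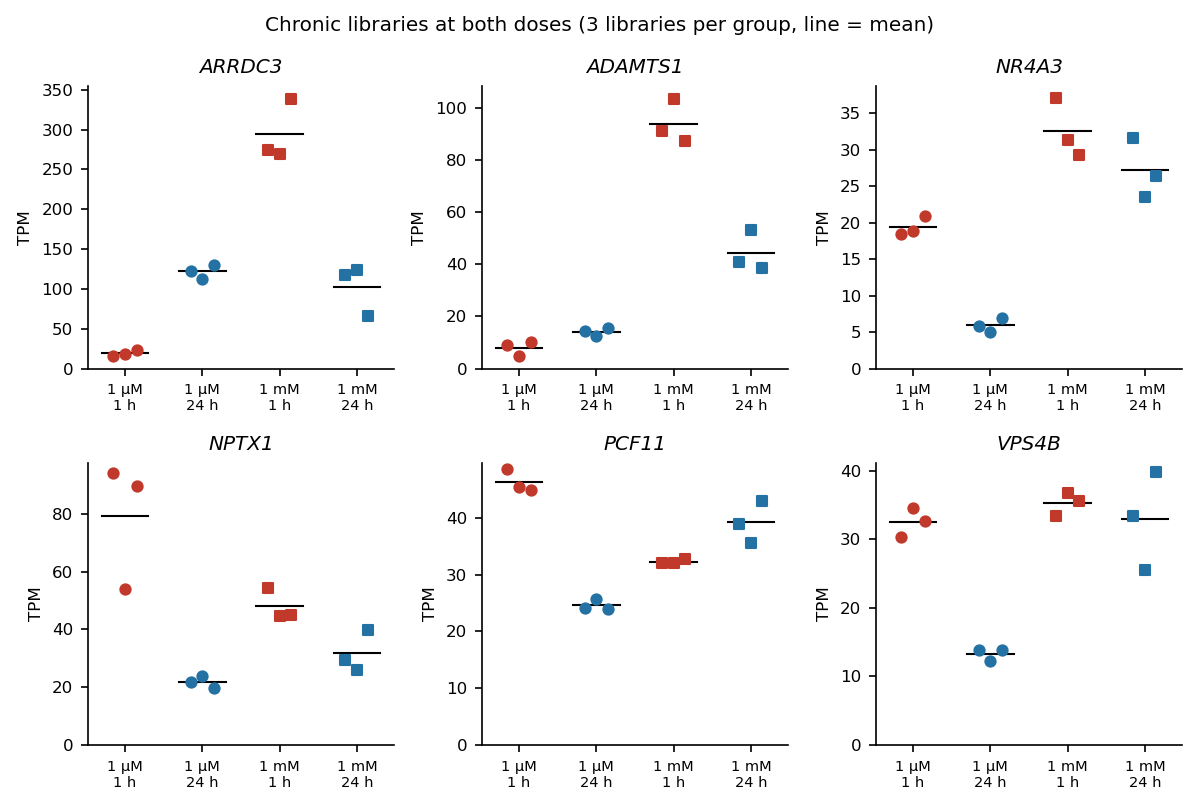
TPM in every chronic library at 1 µM (circles) and 1 mM (squares) for the 6 genes whose change from 1 h to 24 h differed between doses, with 1 h in red, 24 h in blue and a line at the mean of 3 libraries. ARRDC3 is lower at 1 h than at 24 h at 1 µM and higher at 1 mM.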

How the data were processed

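The 15 libraries of the 1 µM experiment, and for the doses 30 libraries of both dopamine experiments, were analysed from one deposited table of 60676 genes each. The authors mapped the reads in CLC Genomics Workbench to GRCh38 with an Ensembl annotation. They deposited, for every gene, counts of reads in exons, in introns and in the whole gene, counts of uniquely mapped reads, and TPM computed from exon reads and exon length. The sources used here do not say which of the sequencing providers made each library. Exon counts were tested here with edgeR 4.0.16 in R 4.3.3 (filterByExpr with minimum count 10 and minimum total 15, TMM, glmQLFit and glmQLFTest) in one fit with 5 group means, with Benjamini-Hochberg adjustment over all genes tested, and total gene reads beside them. SE was taken from F, as the size of the log2 change over its square root. Interactions compared the chronic change with the acute change, and 1 µM with 1 mM.

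Groups came from the sample titles. Named genes are those the study named, the 12 DEGs of largest change in each direction with no overlap and a gene symbol, list members that were DEGs, dopamine receptors, the 5 DEGs with the smallest p of each interaction, and the 3 with the smallest p in each direction. Genes beyond these are named as list or marker examples or were chosen after their values were seen. Members, lists and tests were chosen with earlier results of these data known. For a gene of 2000 exon bases, 3 reads equal 0.208 to 0.653 TPM in the 6 chronic libraries, which covers counting error only. On simulated data with 16541 genes for this comparison, edgeR found 56 of 100 genes changed by 1 on the log2 scale and 92 of 100 changed by 2, with 4 false calls, and DESeq2 1.42.0 found 66 and 94 with 41 false calls. The changed genes were drawn from well-counted genes only, so these counts do not cover genes with few reads. All simulated libraries had the same profile of means, with no library rich in mitochondrial reads. Alternatives are given in the closing section. Tables were made with pandas 2.3.3 in Python 3.11.15, permutation tests with scipy 1.17.1 and figures with matplotlib 3.10.9. Identical counts were found in 0 pairs of libraries. Further libraries of the series were not used here. Values of some list and marker genes are not reported here.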

Additional observations from a re-analysis of the deposited data

Results flagged for a closer look

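These 9 results were singled out because a change from 24 h to 1 h differed, by an interaction test in edgeR, between 2 regimens or 2 doses. Between chronic and acute dosing, which differ in culture age too, differences on the log2 scale were -2.21 for EGR1 (adjusted p = 0.0143), -2.92 for FOS (adjusted p = 0.00315) and 2.38 for NCOA5 (adjusted p = 0.00126). Between 1 µM and 1 mM they were -4.08 for ARRDC3 (adjusted p = 0.0133), 1.58 for NR4A3, 1.31 for PCF11, 1.32 for VPS4B and -1.82 for ADAMTS1 (adjusted p = 0.0131 each) and 1.35 for NPTX1 (adjusted p = 0.0255). Across fits that left out 1 chronic library, adjusted p reached 0.0974 for EGR1, 0.0227 for FOS and 0.00935 for NCOA5, and 0.0908 for ARRDC3, 0.0609 for NR4A3 and VPS4B, 0.0596 for PCF11, 0.0581 for ADAMTS1 and 0.115 for NPTX1.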

How the results depend on the processing

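Exon reads gave 148 DEGs (127 higher, 21 lower). DESeq2's test gave 235, 49 of them lower. No threshold on the fold change gave 322 (256 and 66). Leaving out 1 chronic library gave 64 to 131 (54 to 117 higher, 8 to 14 lower), and leaving out 1 other library of the fit 131 to 194 (113 to 162, and 17 to 35). Alternatives chosen after seeing the data were fits without mitochondrially encoded genes (149), without the 3 libraries with most mitochondrial reads (258, of which 192 higher and 66 lower), and total gene reads with only the 2 groups (85, 68 of them higher) and with the replicate block (105). Total gene reads without replicates 1, 2 and 3 of Chronic 1 h gave 58, 111 and 67 (44, 99 and 45 higher, 14, 12 and 22 lower), and without those of Chronic 24 h 54, 45 and 53 (42, 32 and 42 higher, 12, 13 and 11 lower). DESeq2's size factors (151), uniquely mapped reads (128), total gene reads (114), no filter (149), at least 10 reads in every library (144), only the 2 groups (193), thinned libraries (144) and a max group mean of 0.75 (148) stayed within 1.5 times. The replicate block gave 146, and changed neither count of interactions (3 and 6). Replicate numbers were not used to pair libraries. Residuals of same-numbered libraries correlated at -0.226 to 0.122 between the chronic groups. Over all 1 µM groups they correlated at -0.301 to 0.446 (mean 0.0229), the highest value between replicates 2 of Acute 1 h and Chronic 1 h. Libraries of other numbers correlated at -0.43 to 0.303 (mean -0.0034). Of 15 libraries, 8 correlated best with a library of their own number. How many would do so without a link was not computed. The interaction with regimen gave 116 genes in DESeq2, 131 without the 3 libraries and 2 to 3 without 1 chronic library. That with dose gave 78 in DESeq2, 13 on total gene reads, 23 without the 3 libraries and 0 to 8 without 1 chronic library. The difference in intron share of -0.481 percentage points ranged from -2.92 to 1.21. HFM1 (log2 1.61) was at -0.27 on total gene reads with the block, and at -0.46 and -0.0081 without replicate 3 of Chronic 1 h or of Chronic 24 h. No other DEG had another sign in these settings. The causes were not tested.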
